A study of Mus musculus with 6 samples.

Results

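The mRNAs of the translation initiation and elongation factors were followed in natural killer (NK) cells with and without Mettl3, the catalytic subunit of the enzyme that writes N6-methyladenosine (m6A) on mRNA. Members were taken by name, as every gene whose symbol begins with Eif1 to Eif6 or with Eef1 or Eef2, without the eIF2 kinases (Eif2ak). This gave 60 of the 14490 genes listed, 59 of them protein coding and 1 a processed pseudogene, Eif4a-ps4. Some members are not factors themselves but bind or modify them, such as the eIF4E-binding proteins and the methyltransferases of eEF1A. NK cells were sorted from the spleens of C57BL/6 mice that were 6 to 10 weeks old. WT mice were Mettl3fl/fl, and cKO mice were Ncr1Cre-Mettl3fl/fl (heterozygous for Cre, Ncr1Cre/+, in the study's methods), so that all animals carried the floxed allele and only cKO animals carried Cre, which is expressed from the Ncr1 locus in cells that make NKp46. An effect of Cre and an effect of the deletion therefore cannot be told apart. Each genotype had 3 samples, and nothing states whether each came from a separate animal, so p-values measure the spread between these samples, which may be technical.

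Translation begins when eIF4F binds the cap of an mRNA: eIF4E holds the cap, eIF4G is the scaffold, and eIF4A is the helicase that opens structure in the leader. The small ribosomal subunit carries eIF1, eIF1A, eIF5, eIF3 and the ternary complex of eIF2, GTP and initiator tRNA, and scans to the start codon, where eIF5B joins the large subunit. eIF2B recharges eIF2 with GTP, and it is the step that eIF2 kinases block under stress. The eIF4E-binding proteins (4E-BPs) keep eIF4E from eIF4G until mTORC1 phosphorylates them, eEF1 and eEF2 carry out elongation, and eIF5A helps the ribosome through difficult peptide bonds. In NK cells, IL-15 acts in part through mTORC1 and so through these steps.

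The values are normalized counts, that is, reads per gene divided by the size factor of the sample. Reads on the listed genes, estimated from the worth of a single read, numbered from 55965515 to 71464042 in a sample. Genotypes were compared by limma on log2(normalized count + 1) in a two-sided test, p was adjusted over the 14490 genes by the Benjamini-Hochberg method, and a member is called higher or lower where its adjusted p was under 0.05. Values per sample are given in the order of the replicate numbers. Mettl3 was at 1303, 1258 and 1192 normalized counts in WT and 297, 299 and 405 in cKO (log2 fold change −1.92). The 8 NK markers summed to between 700239 and 757737 normalized counts in every sample. However, 7 of them were called, 2 higher and 5 lower in cKO. Their log2 fold changes ran from −0.40 (Ncr1) to 0.23, and their part in the results was not tested. Ncr1 is the locus from which Cre is expressed in cKO animals, and the next lowest marker was Klrb1c at −0.27. In this bulk measurement fewer cells of a type and less RNA per cell cannot be told apart. Markers of B cells were higher in cKO for 5 of the 6 genes, with summed levels of 691 to 739 in WT and 1070 to 1100 in cKO, none of the 6 was at 0, and their part in the results given here was not tested. The lists for T cells and myeloid cells had 1 of 5 and 4 of 5 listed markers called, in both directions for the myeloid genes, and limma called 0 of 3 erythroid markers (0 at an unadjusted p under 0.05 as well). The T-cell marker called was Cd3g, lower in cKO, and log2 fold changes in that list ran from −0.75 (Cd3g) to 0.66. T-cell markers summed to 1724 to 1919 in WT and 1338 to 1551 in cKO, and their part in the results was not tested.

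Of the 60 members, 30 were called, 11 higher and 19 lower in cKO. Among all genes 36.6% were called, 17.8% higher and 18.8% lower. Members are abundant mRNAs, with a median of 6501 normalized counts against 880 for all genes, and the background depends on that. Of the 50 members with a mean of at least 1000 normalized counts 54.0% were called, against 52.6% of all genes at that level, so the share of members called was near the background. The members' median log2 fold change was −0.03, against 0.00 for all genes, and the median size of the change was 0.11, against 0.17. The 3 cKO values lay wholly above or wholly below the 3 WT values for 33 members, and for 45.7% of all genes, a share that was not matched for level.

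The direction of many small differences depended on the scaling. The size factors left slightly larger totals in WT, 66099619 to 66657947 normalized counts against 63610357 to 64941538 in cKO. With all samples scaled to equal totals the log2 fold changes moved up together, and the median of all genes was 0.05. The members then counted 17 higher and 12 lower, beside 24.1% of all genes higher and 13.9% lower. Of the 30 called members, 18 kept their call and direction under all 12 alternative settings, 7 higher (Eif4ebp2, Eif1b, Eif5b, Eef1akmt1, Eif4g1, Eif3b and Eef1g) and 11 lower (Eif1, Eif1ax, Eif2s2, Eif2s3x, Eif3d, Eif3e, Eif3f, Eif3k, Eif3m, Eif4g2 and Eif5a).

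**Figure D1:**
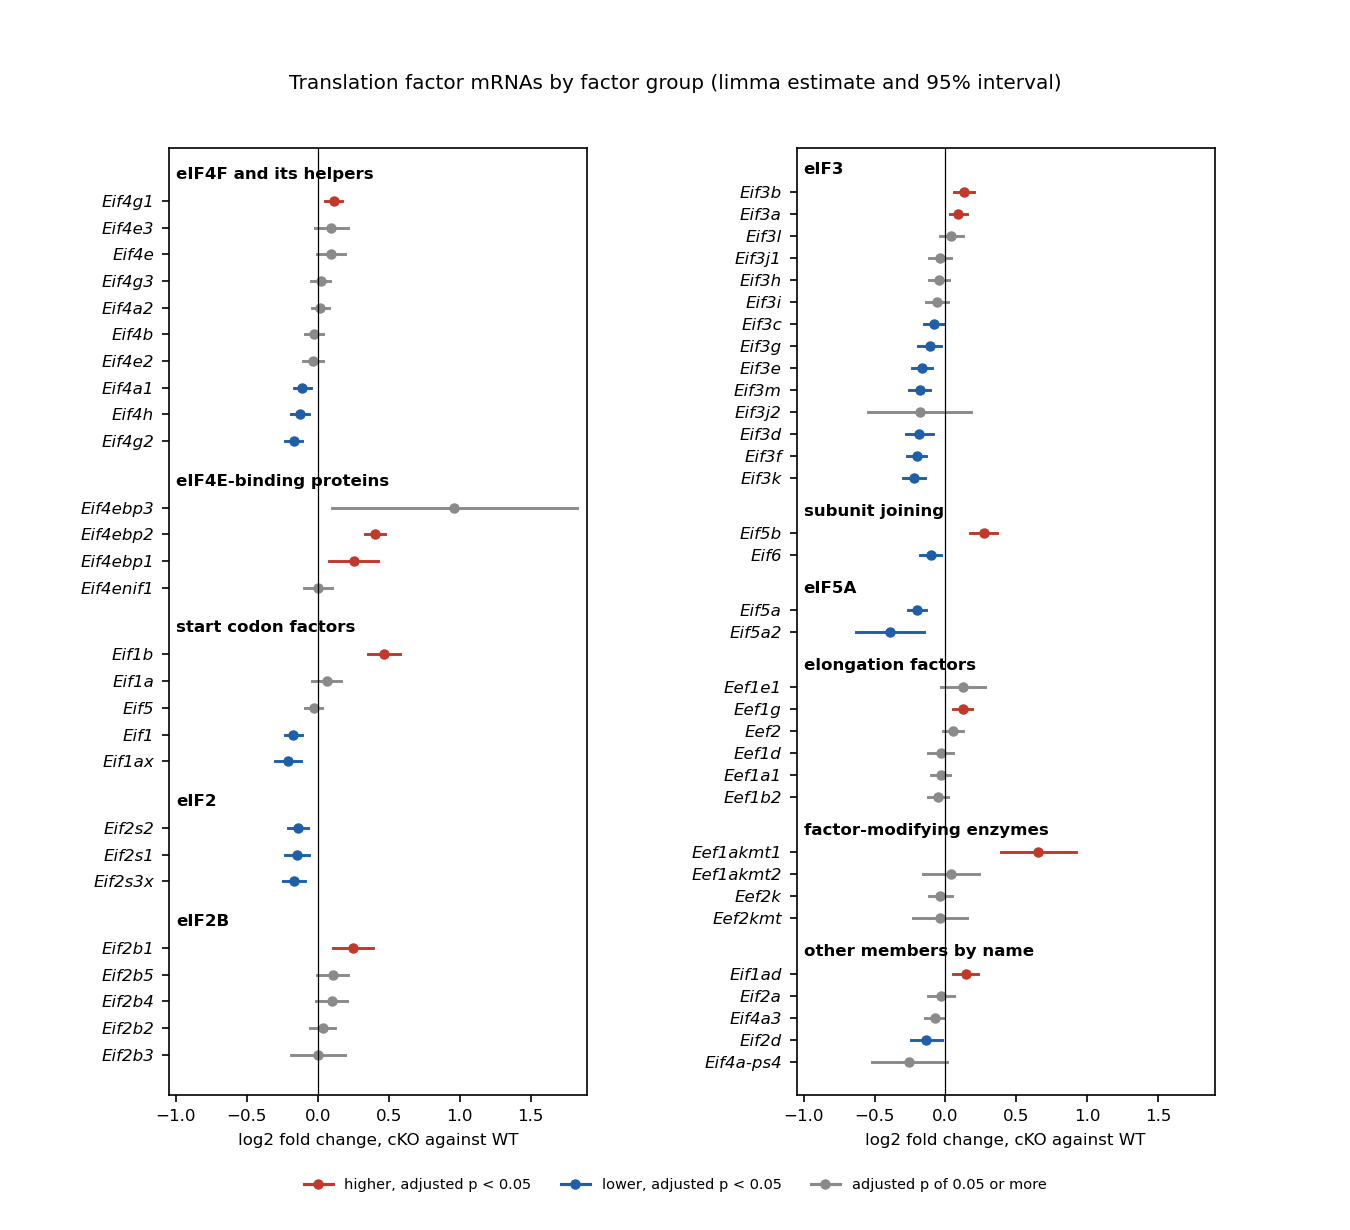
Log2 fold change of each of the 60 members in cKO against WT (points, limma) with its 95% confidence interval (lines), arranged by factor group, 3 samples per genotype. Of the coloured members, 11 lie to the right of 0 and 19 to the left, and 54 of the 60 intervals lie wholly between −0.5 and 0.5.

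Differences were small. Only 5 members had a log2 fold change of at least 0.3 in size, of which 4 were called: Eef1akmt1, Eif1b and Eif4ebp2 higher and Eif5a2 lower. The 95% interval lay between −0.5 and 0.5 for 54 members and between −1 and 1 for 59. The exception at the wider limit was Eif4ebp3, the least abundant member. For 15 members over 10% of the 100-base windows of the transcripts occur in those of other annotated genes too. Matches on either strand were counted, and the origin of such reads can be uncertain. The 15 members include Eef2kmt (20.2%), Eif1ad (13.4%), Eif3h (11.8%), Eif3m (10.4%) and Eif5b, which lies between Eef2kmt and Eif1ad. For Eef2kmt, Eif1ad and Eif5b the sharing genes overlap them at the same place on the opposite strand, so these windows are not copies elsewhere.

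The 4E-BPs, which compete with eIF4G for eIF4E, were the group with the highest median, 0.33. Eif4ebp2 had 9176, 8703 and 8765 normalized counts in WT and 11741, 11907 and 11606 in cKO. Every cKO sample was above every WT sample. The means were 8881 ± 257 (SD, n = 3) and 11751 ± 151 (SD, n = 3), a rise of 32.3% (log2 fold change 0.40, SE 0.0335, limma adjusted p = 2.96e-10). Eif4ebp1 was the less abundant of the pair at 563, 510 and 586 in WT and 652, 651 and 674 in cKO, again without overlap. It rose by a log2 fold change of 0.25 (SE 0.0843, limma adjusted p = 0.0191), and this call rested on single samples, since leaving out WT sample 2 gave an adjusted p of 0.0958 and leaving out cKO sample 3 gave 0.0644. Eif4ebp3 had 24.8, 10.7 and 15.6 normalized counts in WT and 42.7, 25.4 and 31.1 in cKO. Its log2 fold change of 0.96 (95% interval 0.10 to 1.83) did not pass the test (limma adjusted p = 0.0758), although it did without WT sample 1 (0.0381). Exons of this gene are shared with a read-through transcript that continues from the neighbouring gene, and 62.8% of its 100-base windows occur there too. Eif4enif1, the 4E-transporter that carries eIF4E into the nucleus, had 3867, 3477 and 3566 in WT and 3638, 3860 and 3428 in cKO (log2 fold change 0.00, 95% interval −0.10 to 0.10). Together the 4 genes summed to 12701 to 13631 normalized counts in WT and 15739 to 16443 in cKO, most of it from Eif4ebp2.

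The sequence GGACT is the most frequent form of the motif at which METTL3 methylates the adenosine, and it is shown for the 4E-BPs because both called genes carry it in their coding sequence. Its presence does not set them apart, since 54 of the 60 members and 12250 of 14105 genes with a transcript hold it. In each 25-base window from the GENCODE M21 transcripts (GRCm38), the capitals mark GGACT. The windows are those closest to the stop codon that lie within a single exon.
Eif4ebp1, chr8:27260491-27260515, plus strand: tcccgcccggGGACTacagcaccac
Eif4ebp2, chr10:61452437-61452461, minus strand: agctacctcaGGACTactgcaccac
The motif began 259 bases before the stop codon in Eif4ebp1 and 265 bases before it in Eif4ebp2. The windows were identical at 17 of 25 positions and at 9 of the 10 positions after the motif. The bases of GGACT itself are among the 17 and match by selection, since each window was chosen to hold it. The representative transcript of Eif4ebp2 held 6 matches and that of Eif4ebp1 held 2, while Eif4ebp3 held 0. m6A was not measured in these samples, and a match is no evidence of a methylated site.

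**Figure D2:**
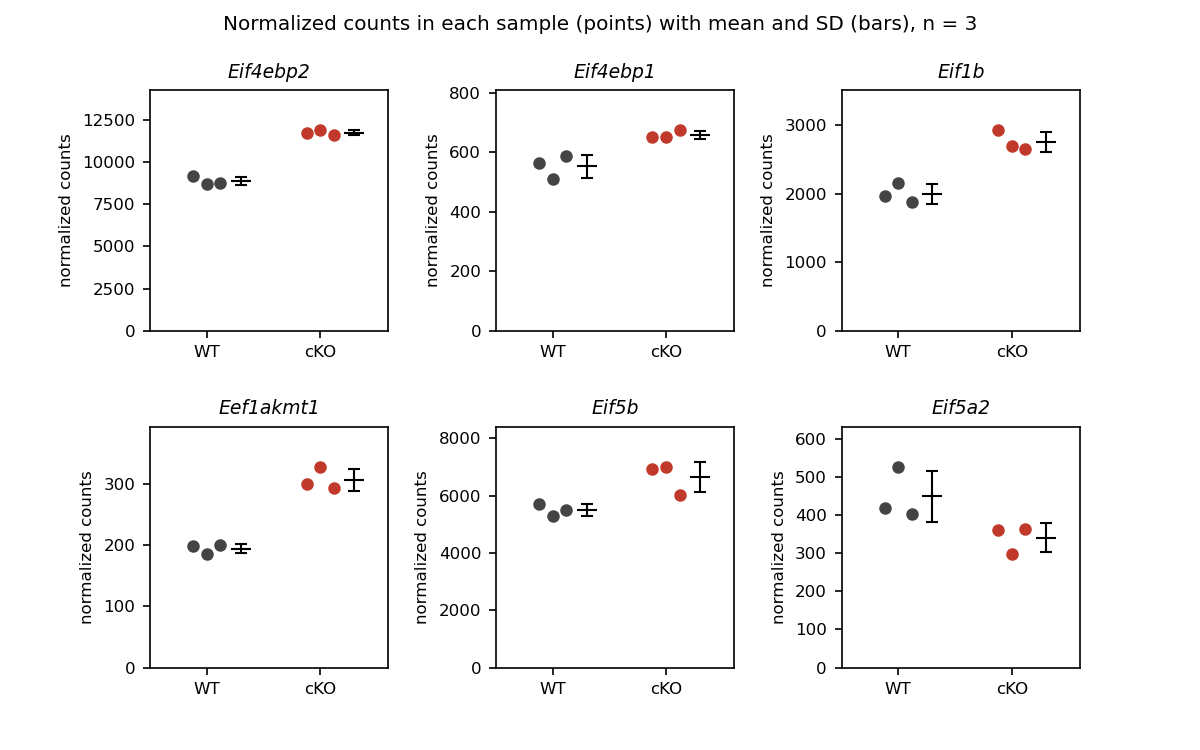
Normalized counts of 6 members in each sample (points; WT dark, cKO red), with the mean and SD of the 3 samples of each genotype (bars); all axes start at 0. Eif4ebp2, Eif4ebp1, Eif1b, Eef1akmt1 and Eif5b were higher and Eif5a2 lower in all 3 cKO samples.

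For eIF4F and its helpers 4 of 10 members were called, 1 higher and 3 lower, and 4 higher and 1 lower with equal totals. Beside this, 17.8% of all genes were called higher and 18.8% lower, and 24.1% and 13.9% with equal totals. Eif4e, the cap-binding protein, had 2406, 2638 and 2588 normalized counts in WT and 2646, 2787 and 2702 in cKO. The cKO samples were all higher by a narrow margin, but the difference did not pass the test (log2 fold change 0.09, 95% interval 0.00 to 0.19, limma adjusted p = 0.133), and it did with equal totals (0.0187). The scaffold Eif4g1 had 18198, 17999 and 18136 in WT and 19443, 19341 and 19923 in cKO. This was a rise of 8.04% (log2 fold change 0.11, SE 0.0300, limma adjusted p = 0.00431). Eif4g2, also known as DAP5, is a relative of Eif4g1 that lacks the eIF4E-binding site. It moved the other way, from 59434, 59875 and 58011 to 52504, 52692 and 52456 (log2 fold change −0.17, SE 0.0285, limma adjusted p = 3.00e-05). The helicase Eif4a1 had 45273, 46223 and 45007 in WT and 41874, 42845 and 41989 in cKO. It fell by 7.17% (limma adjusted p = 0.00414), a call that was lost with equal totals (0.0814). Of the 100-base windows of the Eif4a1 transcript, 60.8% occur in other annotated transcripts, among them Eif4a-ps4, so reads could be split between them. The RNA-binding helper Eif4h was the third member of the group called lower (log2 fold change −0.12), with an adjusted p of 0.0501 under equal totals, and the other members, Eif4a2, Eif4b, Eif4e2, Eif4e3 and Eif4g3, had log2 fold changes from −0.04 to 0.10 and were not called.

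The factors that govern the choice of start codon divided. Eif1, which keeps the scanning ribosome open until a start codon is matched, had 82555, 82629 and 81882 normalized counts in WT and 73227, 74884 and 71299 in cKO. All cKO samples were lower, and the log2 fold change was −0.17 (SE 0.0291, limma adjusted p = 3.45e-05). Of the Eif1 windows 19.2% occur in transcripts of 6 other genes. Its close relative Eif1b went up, from 1962, 2160 and 1871 to 2925, 2695 and 2646. The means were 1998 ± 148 (SD, n = 3) and 2756 ± 149 (SD, n = 3), a rise of 38.0% (log2 fold change 0.46, SE 0.0544, limma adjusted p = 1.45e-07). Per kilobase of transcript Eif1 was still the far more abundant mRNA, at 62296 ± 311 normalized counts per kilobase in WT (SD, n = 3) against 1930 for Eif1b. Eif1ax, which encodes an X-linked eIF1A, had 2902, 3067 and 3020 in WT and 2627, 2602 and 2538 in cKO. It fell by 13.6% (log2 fold change −0.21, limma adjusted p = 4.53e-04), whereas the autosomal Eif1a overlapped between genotypes (log2 fold change 0.06, limma adjusted p = 0.355). Eif5, the GTPase-activating protein of eIF2, had 57781, 58983 and 59694 in WT and 57265, 57658 and 58089 in cKO. The groups overlapped, and the 95% interval of its log2 fold change ran from −0.09 to 0.03. Exons of Eif1b overlap an antisense gene by 143 bases, and the counting is not stated to use strand.

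GGACT windows are shown for Eif1 and Eif1b, whose mRNAs moved in opposite directions.
Eif1, chr11:100321483-100321507, plus strand: cttttaacttGGACTagtgtaactc
Eif1b, chr9:120494149-120494173, plus strand: cagggactgaGGACTacattcatat
Each representative transcript held 2 matches. Both matches of Eif1b lie in the window shown, and the other one stands in lower case just before the capitals. The window of Eif1 lies in the 3′ UTR, 134 bases past the first base of the stop codon, and that of Eif1b lies in the coding sequence, 256 bases before it. These windows were identical at 10 of 25 positions, the motif included, and at 3 of the 10 positions after it.

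All 3 listed subunits of eIF2 were called lower in cKO, beside 18.8% of all genes. At a mean of at least 1000 normalized counts, 52.6% of all genes were called in either direction. Eif2s1, the alpha subunit that the stress kinases phosphorylate, had 4185, 3997 and 3931 normalized counts in WT and 3639, 3720 and 3568 in cKO. Its log2 fold change was −0.15 (SE 0.0412, limma adjusted p = 0.00558) and its adjusted p was 0.0512 with equal totals. Eif2s2, the beta subunit, had 9958, 10003 and 9950 in WT and 9011, 9456 and 8738 in cKO (log2 fold change −0.14, limma adjusted p = 0.00256). Eif2s3x, the gamma subunit encoded on the X chromosome, had 8038, 8293 and 7694 in WT and 6785, 7347 and 7286 in cKO (log2 fold change −0.17, limma adjusted p = 0.00117). For each subunit every cKO sample lay below every WT sample, and the summed level of the 3 genes was 21575 to 22294 in WT and 19435 to 20524 in cKO. Eif2s2 and Eif2s3x share 18.8% and 35.3% of their 100-base windows with other annotated transcripts. With equal totals 2 of the 3 remained called, beside 13.9% of all genes called lower.

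None of the 5 subunits of eIF2B, the exchange factor for eIF2, was called lower, and 1 was called higher. Beside this, 17.8% of all genes were called higher and 18.8% lower. Eif2b1, its alpha subunit, had 1089, 1114 and 1059 normalized counts in WT and 1175, 1439 and 1282 in cKO. It rose by 19.1% (log2 fold change 0.25, SE 0.0685, limma adjusted p = 0.00477), with an adjusted p of 0.0605 without cKO sample 2. The catalytic subunit Eif2b5 had 1796, 1756 and 1775 in WT and 1990, 1933 and 1814 in cKO. The cKO values were all above the WT values, but the log2 fold change of 0.11 did not pass the test (limma adjusted p = 0.119). Eif2b3 had 506, 519 and 454 in WT and 490, 511 and 479 in cKO, with a log2 fold change of 0.00 (95% interval −0.19 to 0.19). The count of called subunits was 1 as tested, 3 with equal totals (Eif2b1, Eif2b4 and Eif2b5), 2 without WT sample 1 and 0 without cKO sample 2.

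eIF3 is the largest initiation factor and the platform that holds the small subunit, eIF4G and the mRNA. Of its 14 listed genes 9 were called, 2 higher and 7 lower, and with equal totals 2 were higher and 5 lower. Beside this, 36.6% of all genes were called, and 52.6% of those with a mean of at least 1000 normalized counts. The count for eIF3 was not tested against these shares. Eif3a, the subunit that anchors the complex, had 32778, 32720 and 32082 normalized counts in WT and 33922, 35485 and 34491 in cKO. It rose by 6.46% (log2 fold change 0.09, SE 0.0295, limma adjusted p = 0.0174), and the call was lost without WT sample 3 (0.0692) or cKO sample 2 (0.0811). Eif3b, its partner in the part of the complex that yeast also has, had 8653, 8353 and 8168 in WT and 9121, 9341 and 9094 in cKO (log2 fold change 0.13, SE 0.0343, limma adjusted p = 0.00358). Eif3k, a subunit at the edge of the complex, had 7482, 7388 and 7166 in WT and 6526, 6305 and 6046 in cKO. It fell by 14.4% (log2 fold change −0.22, SE 0.0372, limma adjusted p = 2.64e-05). The genotypes did not overlap for any of these 3 genes, so that mRNAs for subunits of the same complex moved in opposite directions under both scalings.

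The other subunits of eIF3 called lower were Eif3c, Eif3d, Eif3e, Eif3f, Eif3g and Eif3m, with log2 fold changes from −0.20 (Eif3f) to −0.08 (Eif3c). The calls of Eif3c and Eif3g were lost with equal totals (limma adjusted p of 0.417 and 0.215). They were lost as well without WT sample 1 (0.189 and 0.126), without cKO sample 1 (0.160 and 0.148) and without cKO sample 3 (0.102 and 0.0919). That of Eif3c was also lost without WT sample 3 (0.0548), and that of Eif3g without WT sample 2 (0.0886). In the core octamer, formed by the a, c, e, f, h, k, l and m subunits, 1 of 8 genes was higher and 5 were lower. Among the other 6 genes 1 was higher and 2 were lower, beside 17.8% of all genes higher and 18.8% lower. Eif3h, Eif3i, Eif3j1, Eif3j2 and Eif3l were not called. Eif3j1 and Eif3j2 are near-identical copies that share 47.6% and 84.0% of their 100-base windows with other transcripts, and their counts are uncertain for that reason. Some of the Eif3j1 windows are shared with Spg11, whose exons overlap those of Eif3j1 by 1107 bases on the opposite strand. Exons of Eif3d overlap an antisense gene, Gm17638, by 2151 bases, and Gm17638 itself had 146 ± 33.3 normalized counts in WT (SD, n = 3) and 137 ± 17.0 in cKO (SD, n = 3).

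**Figure D3:**
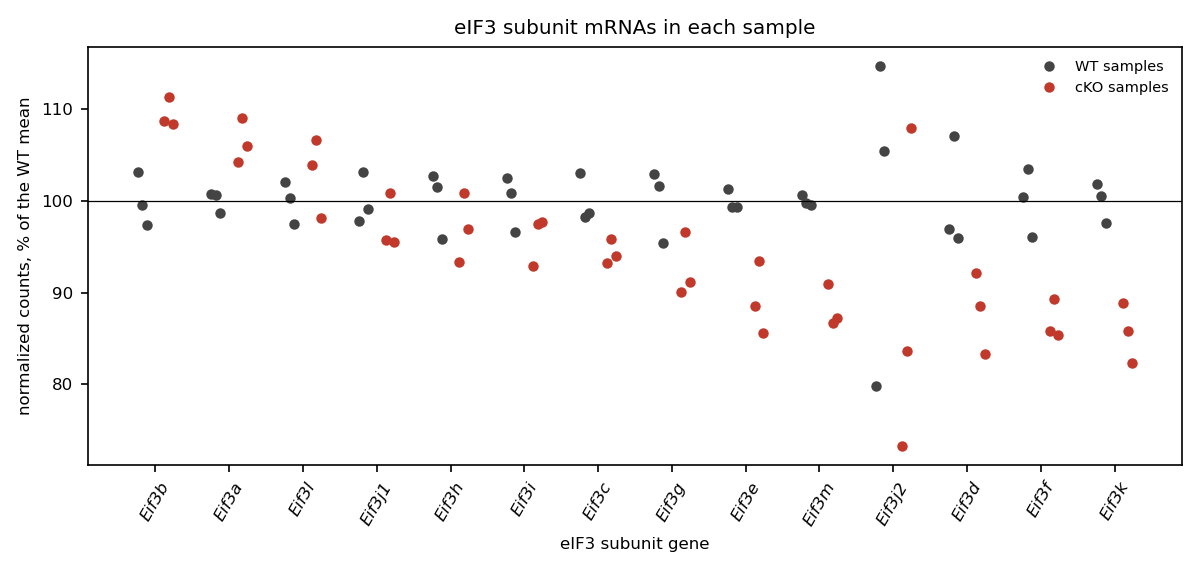
Normalized counts of the 14 eIF3 subunit genes in each sample, as a percentage of the gene's WT mean (line at 100%), ordered by log2 fold change. The 3 cKO samples of Eif3a and Eif3b lie above all WT samples, and those of Eif3d, Eif3e, Eif3f, Eif3k, Eif3m and Eif3c below; the vertical axis does not start at 0.

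The GTPase Eif5b, which joins the ribosomal subunits, had 5709, 5277 and 5511 normalized counts in WT and 6914, 6995 and 6027 in cKO. All cKO samples were higher, the third by less than the other two. The means were 5499 ± 216 (SD, n = 3) and 6645 ± 537 (SD, n = 3), a rise of 20.6% (log2 fold change 0.27, SE 0.0462, limma adjusted p = 3.68e-05). Eif5b exons overlap those of Rev1 on the opposite strand by 1643 bases, and Rev1 had 731 ± 44.3 normalized counts in WT and 721 ± 26.6 in cKO (SD, n = 3 each). Eif6, which keeps the large subunit from joining too early, had 7011, 7146 and 7184 in WT and 6635, 6886 and 6335 in cKO. It fell by 7.0% (log2 fold change −0.10, limma adjusted p = 0.0276). This call was among the least stable: the adjusted p was 0.229 with equal totals, 0.0611 without WT sample 2, 0.0767 without WT sample 3, 0.0706 without cKO sample 1 and 0.178 without cKO sample 3.

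Both genes for eIF5A were called lower, beside 18.8% of all genes. Eif5a, the general form, had 38153, 38544 and 38945 normalized counts in WT and 33659, 34391 and 32534 in cKO. It fell by 13% (log2 fold change −0.20, SE 0.0299, limma adjusted p = 5.56e-06). Eif5a2, the form with a restricted pattern of expression, had 418, 527 and 404 in WT and 362, 298 and 364 in cKO. It fell by 23.8% (log2 fold change −0.39, SE 0.117, limma adjusted p = 0.00920), and it was not called without WT sample 2 (0.0913) or without cKO sample 2 (0.0665). The hypusine enzymes Dhps and Dohh, which activate eIF5A, were not called, with log2 fold changes of 0.06 and 0.04.

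The elongation factors held 1.24% to 1.33% of all normalized counts in a sample. Eef1a1, which delivers aminoacyl-tRNA, had 539760, 537895 and 521411 normalized counts in WT and 518695, 534505 and 509467 in cKO. The genotypes overlapped, and the log2 fold change of −0.03 had a 95% interval of −0.10 to 0.03, turning to 0.02 with equal totals. It shares 26.7% of its 100-base windows with transcripts of 10 other genes. Eef2, the translocase, had 262040, 247904 and 243186 in WT and 255786, 268816 and 256175 in cKO. These values overlapped too (log2 fold change 0.05, 95% interval −0.02 to 0.12, limma adjusted p = 0.233), but with equal totals its adjusted p was 0.00657. Eef1b2, part of the exchange factor for eEF1A, had 23329, 25098 and 23174 in WT and 23700, 23461 and 21938 in cKO. Eef1e1, a member of the tRNA synthetase complex despite its name, had 760, 865 and 840 in WT and 896, 956 and 839 in cKO. Neither passed the test (limma adjusted p of 0.276 and 0.202). Eef1g, the gamma subunit of the exchange factor, was the 1 of 6 called, beside 36.6% of all genes. The mean of Eef1g went from 24511 ± 694 (SD, n = 3) to 26670 ± 864 (SD, n = 3). Its log2 fold change was 0.12 (SE 0.0320, limma adjusted p = 0.00363), and it shares 49.4% of its 100-base windows with other annotated transcripts.

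Among the enzymes that modify the elongation factors, Eef1akmt1, a lysine methyltransferase of eEF1A, had the highest log2 fold change of all called members. It had 198, 186 and 199 normalized counts in WT and 299, 327 and 293 in cKO. The lowest cKO value was well above the highest WT value. The means were 194 ± 7.40 (SD, n = 3) and 306 ± 18.4 (SD, n = 3), a rise of 57.4% (log2 fold change 0.65, SE 0.128, limma adjusted p = 2.03e-04), and its adjusted p stayed between 1.08e-04 and 0.00257 over the alternatives. Eef2k, the kinase that inactivates eEF2, had 5180, 4791 and 5034 in WT and 4853, 5007 and 4770 in cKO (log2 fold change −0.04, 95% interval −0.12 to 0.05). Eef2kmt, a methyltransferase of eEF2, had 539, 598 and 547 in WT and 508, 521 and 618 in cKO. Neither they nor Eef1akmt2 were called.

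A further 5 members match the rule by name only in part or stand outside the groups above. Eif1ad, which has an eIF1A-like domain, had 3211, 3147 and 3135 normalized counts in WT and 3573, 3494 and 3407 in cKO (log2 fold change 0.14, limma adjusted p = 0.00861), with an adjusted p of 0.0563 without cKO sample 1. Its exons overlap those of Banf1 on the opposite strand by 428 bases, and Banf1 had a log2 fold change of 0.01. Eif2d, which can deliver tRNA without eIF2, was lower in all cKO samples (log2 fold change −0.13, limma adjusted p = 0.0437). Its call was lost with equal totals (0.206) and without WT sample 1 (0.0629), WT sample 2 (0.0884), WT sample 3 (0.0990), cKO sample 1 (0.167) or cKO sample 2 (0.0782). Eif4a-ps4 had 304, 316 and 271 in WT and 221, 252 and 276 in cKO. It was not called (limma adjusted p = 0.126) and shares 91.1% of its windows with other transcripts, chiefly Eif4a1. Eif2a and Eif4a3 were not called either.

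GGACT windows are shown for 3 further called members, for Eif5b and Eef1akmt1 as members that rose by over 20% and for Eif5a as a member that fell in every setting.
Eif5b, chr1:38051785-38051809, plus strand: ggacgctgatGGACTtaggtgtata
Eef1akmt1, chr14:57549744-57549768, minus strand: actctgggctGGACTgtgaagccta
Eif5a, chr11:69917244-69917268, minus strand: gcccttggctGGACTcctattcaaa
Eif5b held 12 matches in its representative transcript, more than any other member. GGACT occurred in all 11 members called higher, in 16 of the 19 called lower and in 27 of the 30 not called. The median number of matches per kilobase was 1.36 in the members called higher, 0.84 in those called lower and 1.19 in those not called. Among all genes with a transcript these medians were 1.08, 0.98 and 1.02, and 7.39%, 13.3% and 14.7% of transcripts had no match. Transcript length moved alongside, with medians of 2556, 2153 and 2254 bases in the members called higher, lower and not called, and 3087, 2564 and 2548 bases in all genes, and its part was not tested.

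Ratios of related genes within a sample do not depend on how samples are scaled. Of 10 pairs, 7 had ratios that did not overlap between genotypes, 4 higher and 3 lower in cKO. Of all single genes 45.7% did not overlap, and the share among pairs of unrelated genes was not measured, so the count of 7 has no background. With 3 samples against 3 the exact permutation test, two-sided, cannot give a p below 0.1, and adjusted over the 10 pairs the smallest p was 0.143. The ratio of Eif1 to Eif1b moved furthest. It was 42.1, 38.2 and 43.8 in WT and 25.0, 27.8 and 26.9 in cKO, a difference in the mean log2 ratio of −0.64. The ratio of Eif4g1 to Eif4g2 was 0.306, 0.301 and 0.313 in WT and 0.370, 0.367 and 0.380 in cKO, a difference of 0.28. For Eif1a to Eif1ax it was 1.21, 1.15 and 1.04 in WT and 1.31, 1.45 and 1.34 in cKO, a difference of 0.27. Ratios for Eif4a1 to Eif4a2 were nearly the same in the WT samples, 0.773, 0.772 and 0.772, and were 0.718, 0.693 and 0.712 in cKO, a difference of −0.13. The ratios of Eif4e to Eif4e2, Eif4g1 to Eif4g3 and Eif4ebp1 to Eif4ebp2 also did not overlap (differences of 0.13, 0.09 and −0.15), whereas those of Eif4e to Eif4e3, Eif5a to Eif5a2 and Eif3j1 to Eif3j2 did.

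**Figure D4:**
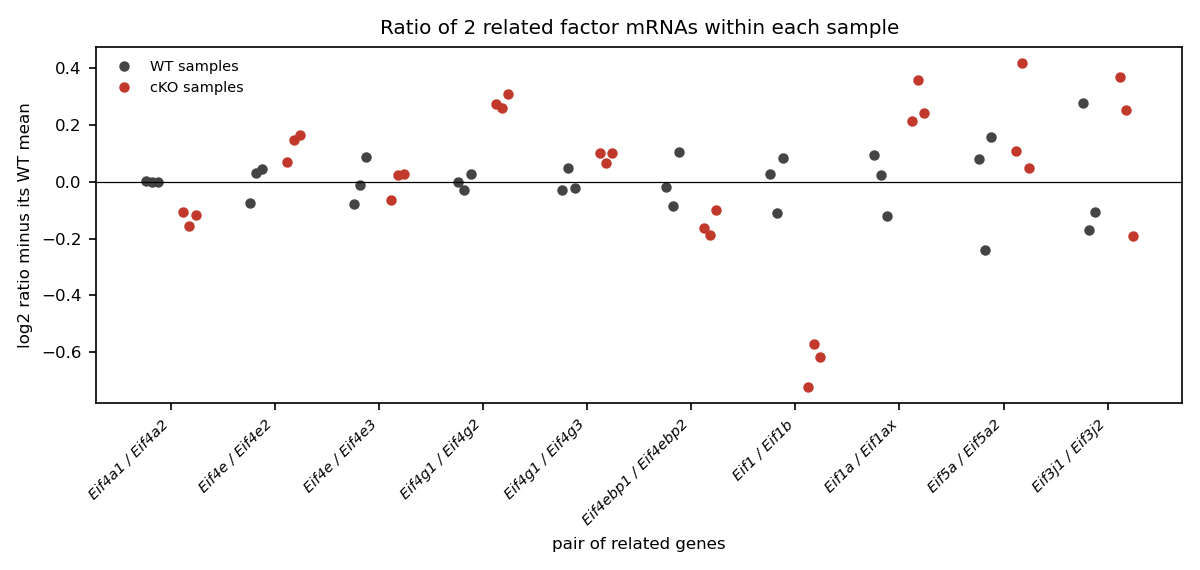
Log2 ratio of the normalized counts of 2 related genes in each sample, minus the mean of the 3 WT samples, for 10 pairs. The cKO samples lie apart from the WT samples in 7 pairs, and their mean lies furthest below for Eif1 over Eif1b (−0.64) and furthest above for Eif4g1 over Eif4g2 (0.28), close to Eif1a over Eif1ax (0.27).

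Levels of different genes can be compared per kilobase of the representative transcript. In WT the order began with Eef1a1 at 297114 ± 5629 normalized counts per kilobase (SD, n = 3), Eef2 at 81270 ± 3176 and Eif1 at 62296 ± 311, each apart from the next beyond its spread. Eif5a (26825 ± 276) and Eif4a2 (26679 ± 396) followed and overlapped in their WT values. Eif4a1 was next at 25649 ± 360. In cKO Eif4a2 was at 27037 ± 845 and Eif5a at 23332 ± 651, and these no longer overlapped. At the other end stood Eif5a2, Eif3j2 and Eif4ebp3, at 89.5, 75.8 and 22.9 normalized counts per kilobase in WT. Eif4g2 was left out of this order over the length of its annotated transcripts, but members that were kept share this limit. Merged exons held 10166 bases for Eif4g2, against 7995 in its representative transcript. For Eif3e, which was kept, they held 6719 bases against 1506. Levels per kilobase therefore depend on the transcript chosen for the kept members too.

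**Figure D5:**
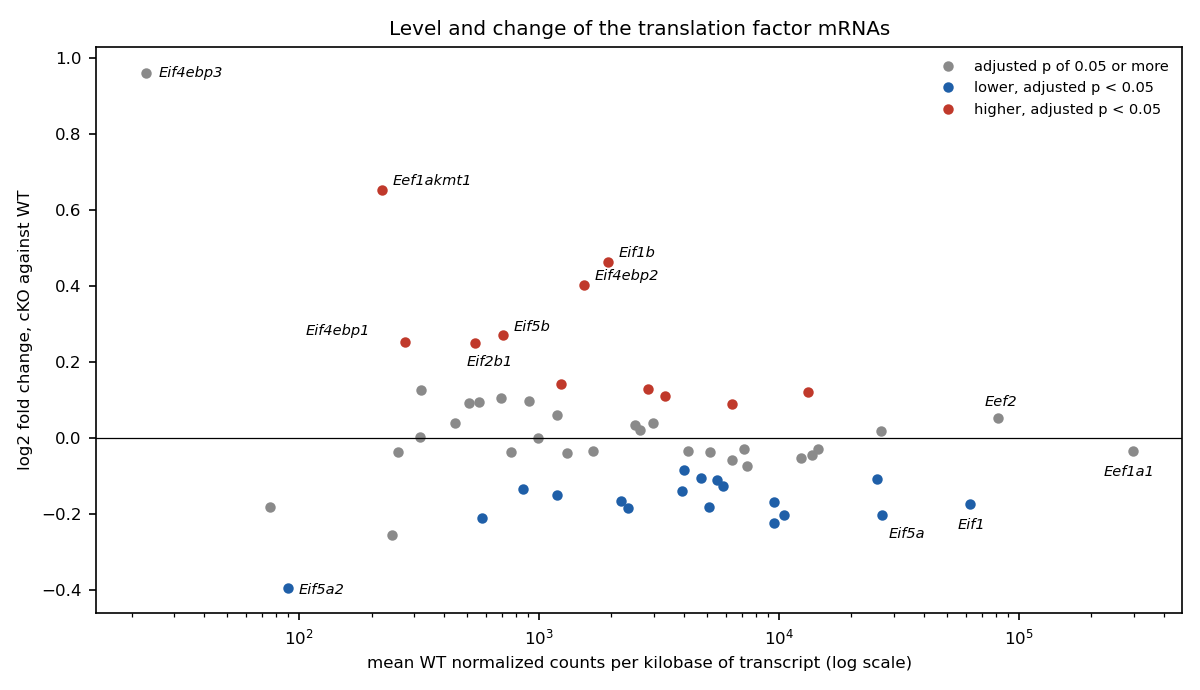
Log2 fold change in cKO against WT (vertical) by mean WT normalized counts per kilobase of representative transcript (horizontal, log scale) for all members but Eif4g2; colours mark the calls. The most abundant factors, Eef1a1 and Eef2, lie within 0.1 of 0, and the members past 0.3 in size lie at 1930 normalized counts per kilobase or less.

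Other genes of translation were counted in lists. Of 62 genes outside the members 31 were called, 14 higher and 17 lower, and 20 higher and 13 lower with equal totals. Beside this, 36.6% of all genes were called, 17.8% higher and 18.8% lower, and with equal totals 24.1% were higher and 13.9% lower. Among all genes with a mean of at least 1000 normalized counts 52.6% were called. The 62 genes lie both above and below that level. The eIF2 kinases with the eIF2α phosphatase subunits and Impact had 3 of 7 higher and 1 lower. Regulators linked to the poly(A) tail and mTOR had 3 of 13 higher and 5 lower, and scanning and reinitiation factors 1 of 5 higher and 3 lower. Termination, rescue and recycling factors had 3 of 7 higher and 2 lower, and mitochondrial factors 3 of 6 higher and 0 lower. The cytosolic aminoacyl-tRNA synthetases with Aimp1 and Aimp2, scaffold proteins of the synthetase complex, had 1 of 22 higher and 6 lower, Aimp1 among the latter, which became 6 higher and 4 lower with equal totals. The largest log2 fold change in these lists was that of Pelo, which rescues stalled ribosomes. It had 80.4, 89.2 and 110 normalized counts in WT and 185, 217 and 190 in cKO (log2 fold change 1.08, SE 0.179, limma adjusted p = 2.47e-05). Exons of Pelo overlap 2 other annotated genes over 1074 bases, on the same strand and on the opposite strand, so that its reads are not certain to be its own.

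Many mRNAs of the translation machinery begin with a terminal oligopyrimidine (TOP) tract, a C followed by pyrimidines, through which mTORC1 controls their translation. A list of 10 members known for such mRNAs held 2 called higher (Eif3a and Eef1g) and 2 called lower (Eif3e and Eif3f), with a median log2 fold change of −0.03, and 3 higher and 2 lower with equal totals. Members outside the list had 9 of 50 called higher and 17 lower, with a median of −0.03. Beside both counts, 17.8% of all genes were called higher and 18.8% lower. RefSeq start sites (GRCm38.p6) were found for 45 of the 60 members. At 2 of them, Eif3f and Eif2s3x, the transcript begins with C and at least 4 further pyrimidines, as 2.51% of all RefSeq starts do. By start, this was 3.39% of the members' 59, against 2.40% for all listed genes. Of the list of 10 only Eif3f was among them, although Eef1a1, Eef1b2, Eef2 and Eif3a also had RefSeq starts. The match therefore misses members known for TOP mRNAs, and Eif2s3x is not on that list. The starts of Eif3f and Eif2s3x are shown because they were the only 2 members that matched. Both mRNAs were called lower in cKO, and a link of the tract to the calls was not tested. Each window holds 15 bases before and 15 after the start, and capitals mark the tract of 11 pyrimidines.
Eif3f, chr7:108934400-108934429, plus strand: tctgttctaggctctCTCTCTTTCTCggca
Eif2s3x, chrX:94212637-94212666, minus strand: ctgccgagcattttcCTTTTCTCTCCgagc
In the windows from 250 bases before to 50 after each start, 5 further motifs were searched on both strands. The E-box CACGTG, bound by MYC among others, occurred at 12 of the 45 members, of which 3 were called higher, 6 lower and 3 not. Beside this, 11 of all 60 members were called higher, 19 lower and 30 not. At a mean of at least 1000 normalized counts 52.6% of all genes were called, and a link of motifs to calls was not tested. By window, 23.7% of the members' 59 promoters held it, against 9.71% of the promoters of all listed genes. CCGGAAGT, the core of ETS sites, occurred at 8 members (16.9% of their promoters against 8.11%), of which 0 were called higher and 3 lower. AAGATGGC, a YY1 motif, occurred at 5 (8.47% against 4.46%), of which 0 were called higher and 3 lower. GCATGCGC, an NRF1 motif, occurred at 5 (8.47% against 5.24%), again with 0 called higher and 3 lower. TGACGTCA, the cyclic AMP response element, occurred at 1 member (1.69% against 3.13%), which was not called. None of these motif shares was matched for mRNA level, and some members have several promoter windows.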

How the data were processed

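Splenic NK cells of 3 WT and 3 cKO samples were analysed by mRNA-seq, grouped by the sample titles. The authors aligned reads to GRCm38 with HISAT2 (2.0.5 in the submitters' processing notes), counted them per gene with featureCounts (1.5.0-p3) and divided the counts by DESeq2 (1.16.1) size factors; the study's methods give other versions, and the strand setting is not given in the sources used here. The signal the authors deposited is these normalized counts and their mean over all samples. The authors also deposited their own comparison, with log2 fold changes and standard errors, a Wald statistic as a score, and p-values, and none of it was used.

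Values under 500 were divided by the estimated worth of a single read, and 100% of them came within 0.01 of a whole number, which gave the reads per sample (55965515 to 71464042). A second, general estimate of that worth found whole reads in WT sample 2 alone, so the read numbers are estimates and no negative binomial model was run on them. Here limma 3.58.1 (R 4.3.3) was fitted with a variance trend to log2(value + 1) of all genes at 1 or more in 3 or more samples, a filter that removed none, and adjusted by the Benjamini-Hochberg method over 14490 genes. The steps were tested on simulated data. Samples of a genotype differed by more than counting noise (chi-square per degree of freedom 5.50 to 8.00). Paralogue ratios were compared by the exact permutation test (scipy 1.17.1).

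Factor groups, lists and motifs were chosen with earlier results of these data known. Members given per sample are those past the test with a log2 fold change of at least 0.3 in size, the highest and lowest of each factor group and 15 set factors, such as Eif4e and Eef2. Transcripts, positions and overlaps are from GENCODE M21, using the complete coding transcript of best annotation, then the longest. Alternatives were a pseudocount of 0.1, no filter, at least 1 CPM in 3 samples, equal totals, limma-voom on the reads (chosen after seeing the data), the replicate number as a block and each replicate left out.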

Additional observations from a re-analysis of the deposited data

How the results depend on the processing

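A pseudocount of 0.1, no filter and a filter of at least 1 CPM in 3 samples left the same 30 members called. With equal totals 17 members were called higher and 12 lower, and with limma-voom, scaled to total reads, 17 higher and 14 lower. Under these 2 settings the counts called were 3 and 3 for eIF2B, 1 and 1 for subunit joining, 2 and 2 for the elongation factors, and 1 and 1 for the members grouped by name only. The log2 fold changes of 10 members that were not called turned positive under both, to 0.016 and 0.017 for Eef1a1, 0.014 and 0.012 for Eef2k, 0.013 and 0.020 for Eef2kmt, 0.021 and 0.021 for Eif5, and 0.007 to 0.022 for Eif4b, Eif4e2, Eif3h, Eif3j1, Eef1d and Eif2a. With samples left out in turn 25 to 29 members were called, 9 to 13 higher and 15 to 17 lower. The counts ranged from 1 to 3 for the eIF4E-binding proteins, 0 to 2 for eIF2B, 1 to 2 for subunit joining, 1 to 2 for eIF5A and 0 to 2 for the members grouped by name only. Of the members not called, 9 took the other sign without some sample, with ranges of −0.125 to 0.016 for Eef2kmt, −0.056 to 0.041 for Eif2b3 and −0.041 to 0.047 for Eif4enif1. The other 6 were Eif4a2, Eif4g3, Eif2b2, Eef1akmt2, Eef1d and Eif2a, each without a single sample. The log2 ratio of Eif4e to Eif4e3 ranged from −0.042 to 0.040. Leaving out a sample also leaves fewer samples to test, and the cause of the other changes was not tested.

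The replicate numbers did not pair the samples (correlations of same-numbered deviations −0.04, 0.06 and 0.04, and not every sample correlated best with its own number). With the replicate block 30 members were called, the same 30, and 5543 genes in all against 5307. Count models on the recovered reads, edgeR and DESeq2, were planned and not run, because a second estimate of the worth of a read did not find whole reads in every sample. Eif4ebp3, the 1 member under 1 CPM, was the least precisely measured.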
